A study of Mus musculus with 28 samples.

Results

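The response of LLC cells to the glucose transporter inhibitor BAY-876 without TNF is described from 6 of the 28 libraries of the series, the BAY-876 group and the control group of the 32 h experiment, with 3 libraries each. LLC is a mouse cell line from Lewis lung carcinoma, recorded as wild type, and both groups were grown in the same medium with serum. Cells of the BAY-876 group were given 200 nM of the inhibitor for 24 h and then kept for 32 h without TNF, and no label says if the inhibitor was still present in that time. Control cells received neither agent over the same periods, although their treatment tag reads vehicle. Genes were kept at 1 TPM (transcripts per 1000000) or more in at least 3 of the 6 libraries, which left 12363 of 55291 genes in the table. Outside these libraries, BAY-876 with TNF is set against TNF alone, both with 20 ng/ml TNF in the last 32 h, and 200 nM BAY-876 is set against vehicle in a separate 36 h experiment on the same line, with 3 libraries in each of these 4 groups.

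GLUT1, the product of Slc2a1, carries glucose down its gradient into the cell and is the main glucose transporter of many tumour lines, and BAY-876 is a small molecule that blocks it. Phosphorylated glucose inside the cell brings the transcription factors MondoA (gene Mlxip) and ChREBP (gene Mlxipl), each paired with Mlx, to carbohydrate response elements, and Txnip is their best known target. Shortage of amino acids, haem or folding capacity leads to phosphorylation of the initiation factor eIF2, which favours translation of ATF4 and so the genes of the integrated stress response. Interferon-stimulated genes, genes of the unfolded protein response of the endoplasmic reticulum (ER) and sterol genes each answer to a transcription factor family of their own, namely STAT and IRF proteins, ATF6 with XBP1, and SREBP proteins.

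Promoter stretches are shown for the genes on which the main results turn, since each of these responses has a short sequence to which its factors are known to bind. They are printed 5′ to 3′ on the strand of the gene, from RefSeq promoters on build GRCm38.p6, and capitals mark a match to the motif searched on both strands. For the carbohydrate response element the letters were CACGNG, any 5 bases and CACGNG again, found in 0.0487% of the 32851 promoters of 300 bases and in 1 of 4 tested genes of the glucose sensing list.
Txnip, chr3:96557802-96557956: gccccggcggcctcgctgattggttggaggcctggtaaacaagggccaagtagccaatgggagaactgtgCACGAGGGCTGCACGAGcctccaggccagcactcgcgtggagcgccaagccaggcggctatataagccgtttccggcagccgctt
For the ATF4 element the letters were TGATGNAA, found in 3.97% of promoters and in 9 of the 31 tested genes of the stress response lists that have a promoter entry.
Chac1, chr2:119351009-119351096: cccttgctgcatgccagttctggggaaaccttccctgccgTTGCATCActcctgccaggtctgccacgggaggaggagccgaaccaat
Atf3, chr1:191183396-191183483: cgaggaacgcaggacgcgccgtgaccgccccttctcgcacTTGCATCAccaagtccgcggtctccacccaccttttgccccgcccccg
For the interferon-stimulated response element the letters were GAAA, any 2 bases and GAAA again, found in 3.44% of promoters and in 8 of the 20 tested interferon genes that have one, with matches that can overlap.
Isg15, chr4:156200835-156200936: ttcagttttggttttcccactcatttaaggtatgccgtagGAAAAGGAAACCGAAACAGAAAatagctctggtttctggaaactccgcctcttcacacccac
Ifit1, chr19:34640745-34640853: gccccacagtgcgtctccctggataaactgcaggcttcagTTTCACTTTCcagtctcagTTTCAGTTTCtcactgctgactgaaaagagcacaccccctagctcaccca
For the ER stress response element the letters were CCAAT, any 9 bases and CCACG, found in 0.119% of promoters and in 8 of the 21 tested ER genes that have one.
Hsp90b1, chr10:86705493-86705694: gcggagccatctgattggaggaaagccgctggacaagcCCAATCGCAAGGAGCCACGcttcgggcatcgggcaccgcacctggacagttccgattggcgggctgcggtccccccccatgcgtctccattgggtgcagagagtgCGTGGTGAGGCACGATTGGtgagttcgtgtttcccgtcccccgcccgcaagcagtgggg
Creld2, chr15:88819480-88819578: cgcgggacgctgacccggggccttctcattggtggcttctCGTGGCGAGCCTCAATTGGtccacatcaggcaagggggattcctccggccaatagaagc
Txnip and the ATF4, interferon and ER genes shown here moved in different directions with BAY-876, as the values that follow give. Not every list member with a match moved like the genes shown. Bst2, with the interferon element, rose by a log2 of 0.23. B2m and Stat2 with that element, Fgf21, Jdp2 and Nupr1 with the ATF4 element and Canx with the ER element did not pass the threshold given below. Other members with a match to those elements passed in the direction of the genes shown. The shares of promoters above count every entry, also of genes not tested. Over the 9104 tested genes with a promoter entry, 0.0989% had the carbohydrate response element and 2.53% the ATF4 element. The interferon element was in 3.5% of them and the ER element in 0.165%. A match says that the letters occur in the window, and binding was not measured.

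RNA levels are TPM that sum to 1000000 in each library, so sequencing depth is unknown and every level is relative to the rest of its library. Replicate libraries correlated at 0.9895 to 0.9905 within the BAY-876 group and 0.9881 to 0.9895 within the control group, against 0.9757 to 0.9792 between the groups. Between 12217 and 12246 genes reached 1 TPM in BAY-876 libraries and between 12373 and 12410 in control libraries. Mitochondrial transcripts took 5.91 to 6.33% of TPM in BAY-876 libraries and 6.13 to 6.2% in control libraries. Summed levels of LLC markers were 4968 to 5035 TPM with BAY-876 and 5123 to 5177 TPM in control, led by Vim, and the T and NK cell list stayed at or under 0.312 TPM with BAY-876 and 0.709 TPM in control, with 6 of its 9 members at 0 in all 6 libraries. The fibroblast list summed to 837 to 850 TPM with BAY-876 and 845 to 867 TPM in control, with 2 of 7 members at 0 throughout. The myeloid list summed to 18.8 to 22.5 TPM with BAY-876 and 13.1 to 14.9 TPM in control. In it 4 of 10 members were at 0 throughout, and its part in the results was not tested. Of its 3 tested members 1 was called higher, Cd14, and 1 lower, Lyz2, at the threshold below. Tests are limma fits on log2(TPM + 1) over the 12 libraries of the 32 h table, with Benjamini-Hochberg adjustment over the 12363 genes and a threshold of 0.05. The labels do not say that replicates were separate cultures, so a p-value measures how these libraries spread, and that spread may be only technical. In bulk RNA, fewer cells of a kind and less RNA per cell cannot be told apart.

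BAY-876 moved a large part of the measured transcriptome by small steps and a few genes by large ones. Txnip fell the most and Nadk2, a mitochondrial NAD kinase, rose the most among genes that are more than gene predictions. In all, 1492 genes passed as higher and 3314 as lower, which is 12.1% and 26.8% of those tested, or 38.9% together. The median size of a change that passed was 0.38 on the log2 scale, 446 genes rose and 1055 fell by 0.5 or more, and 58 rose and 142 fell by 1 or more. The excess of lower genes depended on scaling. TPM put the median gene at −0.09, and after median ratio scaling, with the median at 0.00, 2368 genes passed as higher and 2128 as lower, a share of 52.7% higher against 31% in TPM. Quantile normalization gave 2294 higher and 2342 lower, or 49.5% higher. Counts for gene lists are therefore to be read beside these shares, and are given under both scalings where the balance turned. List counts under median ratio scaling stand beside 2368 higher and 2128 lower of the 12363 genes. Libraries of the groups did not overlap in 51.9% of all genes, with BAY-876 above control in 16.7% of all genes and below it in 35.2%. There were 35 genes at 1 TPM or more in every BAY-876 library and no control library, and 89 the other way round, so a gene of this kind entered the test only through the group in which it was high.

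**Figure D1:**
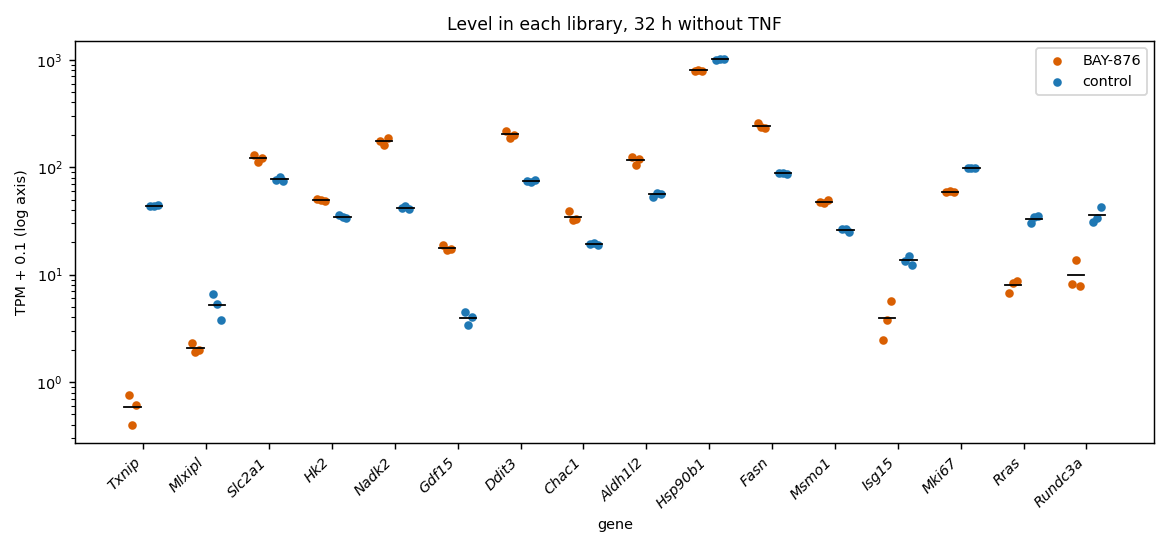
Level of 16 genes in each library, in TPM on a log axis with 0.1 TPM added for display, BAY-876 in orange left of control in blue, 3 libraries each, the short bar marking the mean. Txnip lies below 1 TPM in the BAY-876 libraries and above 40 TPM in the control libraries, and no gene shown has overlapping groups.

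Of 4 tested genes of the glucose sensing list, 3 were lower with BAY-876 and 0 higher, and 2 were lower under median ratio scaling or without BAY-876 replicate 1 or 2. Without any one control replicate Txnip no longer met the filter, so 3 of the list were tested and 1 was lower. Txnip, an arrestin-like protein that restrains glucose uptake, was at 0.653, 0.303 and 0.517 TPM in BAY-876 libraries, against 43.0, 43.1 and 44.2 TPM in control libraries. All 3 BAY-876 libraries lay under 1 TPM, far from every control library, so the gene passed the filter through control libraries alone, and the drop was the largest of all genes tested (log2 −4.90, SE 0.19, limma adjusted p = 4.11e-08). The antisense gene Gm15441 at chr3:96555765-96566801 spans Txnip, which lies at chr3:96557957-96561883 on the other strand, and stood at 0.302, 0 and 0 TPM in BAY-876 libraries, against 7.93, 8.61 and 8.75 TPM in control libraries (log2 −3.11). Nothing used here gives the strand of counting, so reads of the pair cannot be told apart. Mlxipl, which encodes ChREBP, was at 2.21, 1.81 and 1.88 TPM with BAY-876 and 6.58, 5.20 and 3.70 TPM in control (log2 −1.03, SE 0.18, limma adjusted p = 0.000819), with no overlap between the groups. Mlxip, which encodes MondoA, averaged 8.12 ± 0.441 TPM with BAY-876 and 9.90 ± 0.205 TPM in control (log2 −0.26, SE 0.08, limma adjusted p = 0.0306), a fall that did not pass under median ratio scaling (limma adjusted p = 0.108) or without any one of the control libraries or of BAY-876 replicates 1 and 2. Their partner Mlx read 37.3 ± 4.21 TPM with BAY-876 and 39.0 ± 4.14 TPM in control (log2 −0.06, limma adjusted p = 0.658). Arrdc4, the paralog of Txnip, lay just under the filter at 0.274, 0.0963 and 0.511 TPM in BAY-876 libraries and 0.788, 0.778 and 0.727 TPM in control libraries. The first of these ranges lies wholly below the second, and no test was made.

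Of 5 tested glucose transporter genes 1 rose and 1 fell, and 2 rose and 1 fell under median ratio scaling or without control replicate 3. The gene of the inhibited transporter, at chr4:119108711-119137983 on build GRCm38, was at 130.1, 111 and 121 TPM with BAY-876 and 75.4, 80.3 and 74.6 TPM in control (log2 0.64, SE 0.10, limma adjusted p = 0.000401). Each BAY-876 library exceeded each control library. Slc2a8, an intracellular hexose transporter, went the other way at 6.31 ± 0.836 TPM with BAY-876 and 9.70 ± 0.481 TPM in control (SD, n = 3 each, log2 −0.55, SE 0.10, limma adjusted p = 0.00124). GLUT3, from Slc2a3, read 4.82, 6.81 and 5.01 TPM with BAY-876 and 4.23, 3.58 and 4.81 TPM in control, without passing (log2 0.33, limma adjusted p = 0.0696). It did pass under median ratio scaling, at log2 0.41 (limma adjusted p = 0.0355). Slc2a9, a urate transporter, and Slc2a10 stayed near 1 to 3 TPM with overlapping groups. Summed over 12 Slc2a genes, Slc2a1 supplied 87.9 ± 1.34% of TPM with BAY-876 and 79.7 ± 1.63% in control (SD, n = 3 each).

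Glycolytic genes split. Of 22 tested, 3 rose and 7 fell in TPM, with a median log2 of −0.04, while under median ratio scaling 7 rose and 1 fell, so the balance of the list turns with scaling. The 7 lower became 3, 3 and 4 without control replicate 2, BAY-876 replicate 2 and BAY-876 replicate 3. Hexokinase 2, which commits glucose to the cell, rose to 49.3 ± 0.820 TPM with BAY-876, against 34.5 ± 1.04 TPM in control (SD, n = 3 each, log2 0.50, SE 0.06, limma adjusted p = 9.23e-05). Eno2, the neuronal enolase, was at 11.8, 8.40 and 11.1 TPM with BAY-876 and 4.66, 4.13 and 7.05 TPM in control (log2 0.88, limma adjusted p = 0.00436). Pfkfb3, whose product makes the activator of phosphofructokinase, rose by a log2 of 0.36. The member that fell under both scalings was Pgk1, phosphoglycerate kinase, at 990.4, 945 and 958 TPM with BAY-876 and 1299, 1339.8 and 1320.1 TPM in control (log2 −0.45, SE 0.03, limma adjusted p = 3.68e-06). Every BAY-876 library was lower in Pgk1 than every control library. The abundant enzyme Gapdh read 2831 ± 105 TPM with BAY-876 and 2774 ± 74.1 TPM in control and did not pass (log2 0.03, limma adjusted p = 0.554). Gapdh passed as higher under median ratio scaling, at log2 0.13. Lactate dehydrogenase Ldha fell by 0.15 in TPM, and this did not pass under median ratio scaling (limma adjusted p = 0.214).

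Hexosamine and nucleotide-sugar genes had 5 of 11 members lower and 0 higher, with a median of −0.29, and the same count under median ratio scaling. Oga, the enzyme that removes O-linked N-acetylglucosamine from proteins, was at 17.1, 19.5 and 18.9 TPM with BAY-876 and 46.0, 37.0 and 36.4 TPM in control (log2 −1.06, SE 0.12, limma adjusted p = 4.4e-05). Ogt, which adds the sugar, fell by a log2 of 0.32, and Ugdh, which makes UDP-glucuronate, fell by 0.53. The entry enzyme Gfpt1 read 23.8 ± 3.51 TPM with BAY-876 and 21.9 ± 2.79 TPM in control and did not pass (limma adjusted p = 0.531). In the pentose phosphate list 2 of 9 members rose and 2 fell, with 3 higher and 2 lower under median ratio scaling. They were Rpia, the ribose isomerase, by 0.44 and Taldo1 by 0.14 upwards, and Prps2, which makes phosphoribosyl pyrophosphate, by 0.45 and Rpe by 0.31 downwards. Tricarboxylic acid cycle and pyruvate genes had 3 of 33 higher and 11 lower in TPM but 13 higher and 6 lower under median ratio scaling. The lists of this paragraph stand beside 12.1% higher and 26.8% lower over all genes in TPM. Slc25a12, the mitochondrial aspartate and glutamate carrier, which belongs to no list and was named after its values were seen, stood at 19.6, 16.4 and 17.2 TPM with BAY-876 and 47.9, 49.2 and 47.7 TPM in control (log2 −1.40), with no overlap. Pyruvate carboxylase Pcx and cytosolic transaminase Got1 rose by 0.24 and 0.52. For oxidative phosphorylation 6 of 36 subunits rose and 2 fell, with 3 higher without control replicate 2, control replicate 3 or BAY-876 replicate 2, and 11 higher and 2 lower under median ratio scaling. The largest rise was that of Atp5g1, at 365 ± 11.9 TPM with BAY-876 and 275 ± 7.57 TPM in control (log2 0.41, limma adjusted p = 0.000124).

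Among 21 target genes of the integrated stress response (ISR) 14 rose and 1 fell, with a median of 0.45. Among its 17 factors and regulators 7 rose and 2 fell, with a median of 0.11, and 1 fell without control replicate 2, control replicate 3, BAY-876 replicate 1 or BAY-876 replicate 2, or under median ratio scaling. The share of targets that rose can be read against 12.1% of all genes. Atf4 itself was at 924, 839 and 908 TPM with BAY-876 and 548, 568 and 551 TPM in control (log2 0.68, SE 0.04, limma adjusted p = 1.01e-06). Ddit3, which encodes CHOP, was at 218, 188 and 201 TPM with BAY-876 and 73.6, 72.8 and 75.5 TPM in control (log2 1.44, SE 0.07, limma adjusted p = 1.36e-07). In neither gene did any library of the groups overlap. Atf3, with an ATF4 element in the promoter shown, averaged 8.02 ± 1.43 TPM with BAY-876 and 3.48 ± 0.472 TPM in control, Atf5 70.2 ± 4.79 TPM with BAY-876 and 35.8 ± 1.34 TPM in control, and the pseudokinase Trib3 194 ± 13.8 TPM with BAY-876 and 92.4 ± 9.55 TPM in control (SD, n = 3 each). Ppp1r15a, the phosphatase subunit that ends the response, rose by a log2 of 0.84. The kinase gene Eif2ak3, which encodes PERK, fell to 10.5 ± 1.35 TPM with BAY-876, against 15.8 ± 0.449 TPM in control (log2 −0.55, SE 0.09, limma adjusted p = 0.000606). Eif2ak4, which encodes the amino acid sensor GCN2, did not pass (limma adjusted p = 0.387).

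Secreted and metabolic targets gave the largest steps of the list. Gdf15, a stress cytokine, was at 18.7, 16.7 and 17.1 TPM with BAY-876 and 4.40, 3.32 and 3.95 TPM in control (log2 1.93, SE 0.11, limma adjusted p = 4.32e-07). Adm2, a peptide hormone, was at 25.0, 20.2 and 21.8 TPM with BAY-876 and 7.18, 7.96 and 6.91 TPM in control (log2 1.48, limma adjusted p = 2.03e-06). In both genes every BAY-876 library lay above every control library. Chac1, which degrades glutathione, was at 38.8, 31.9 and 33.1 TPM with BAY-876 and 19.2, 19.5 and 18.7 TPM in control (log2 0.82, SE 0.08, limma adjusted p = 1.29e-05). Sesn2 and Ddit4, both inhibitors of mTORC1 signalling, rose by 1.03 and 0.60, and Cth, which makes cysteine, by 1.02. Tnfrsf10b, a death receptor, was the 1 target that fell, by 0.34. Asparagine synthetase Asns, a classical ATF4 target, read 292, 281 and 285 TPM with BAY-876 and 259.7, 272 and 266 TPM in control. Its groups did not overlap, yet the difference did not pass (log2 0.10, limma adjusted p = 0.0921), and it passed under median ratio scaling at log2 0.20.

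Many genes of amino acid and one-carbon metabolism are known targets of ATF4. Their counts can be read beside 12.1% higher and 26.8% lower over all genes in TPM. Of 14 serine and one-carbon genes 8 rose and 1 fell, with a median of 0.34, and of 20 genes for amino acid transport and synthesis 11 rose and 1 fell, with a median of 0.31, and 2 fell without BAY-876 replicate 1. The mitochondrial folate enzyme Aldh1l2 was at 125, 105 and 118 TPM with BAY-876 and 53.2, 57.4 and 56.3 TPM in control (log2 1.04, SE 0.11, limma adjusted p = 3.58e-05), and Mthfd2 and Shmt2 of the same pathway rose by 0.83 and 0.56. Exons of Aldh1l2 share 14.1% of their bases with the opposite-strand gene D10Wsu102e. Phgdh, the first enzyme of serine synthesis, reached 704 ± 24.0 TPM with BAY-876 and 533 ± 20.4 TPM in control (log2 0.40, limma adjusted p = 2.03e-05). Transporters that rose included Slc38a7 for glutamine, Slc7a3 for arginine and lysine and Slc6a9 for glycine, by 0.78, 0.72 and 0.71. The aminoacyl-tRNA synthetases were mixed, with 7 of 19 higher and 3 lower in TPM and 13 higher and 3 lower under median ratio scaling. Sars, for serine, rose to 717 ± 25.5 TPM with BAY-876, against 507 ± 12.6 TPM in control, whereas Qars, for glutamine, fell to 208 ± 19.9 TPM with BAY-876, against 297 ± 8.42 TPM in control (limma adjusted p = 5.86e-05 and 5.12e-05).

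**Figure D2:**
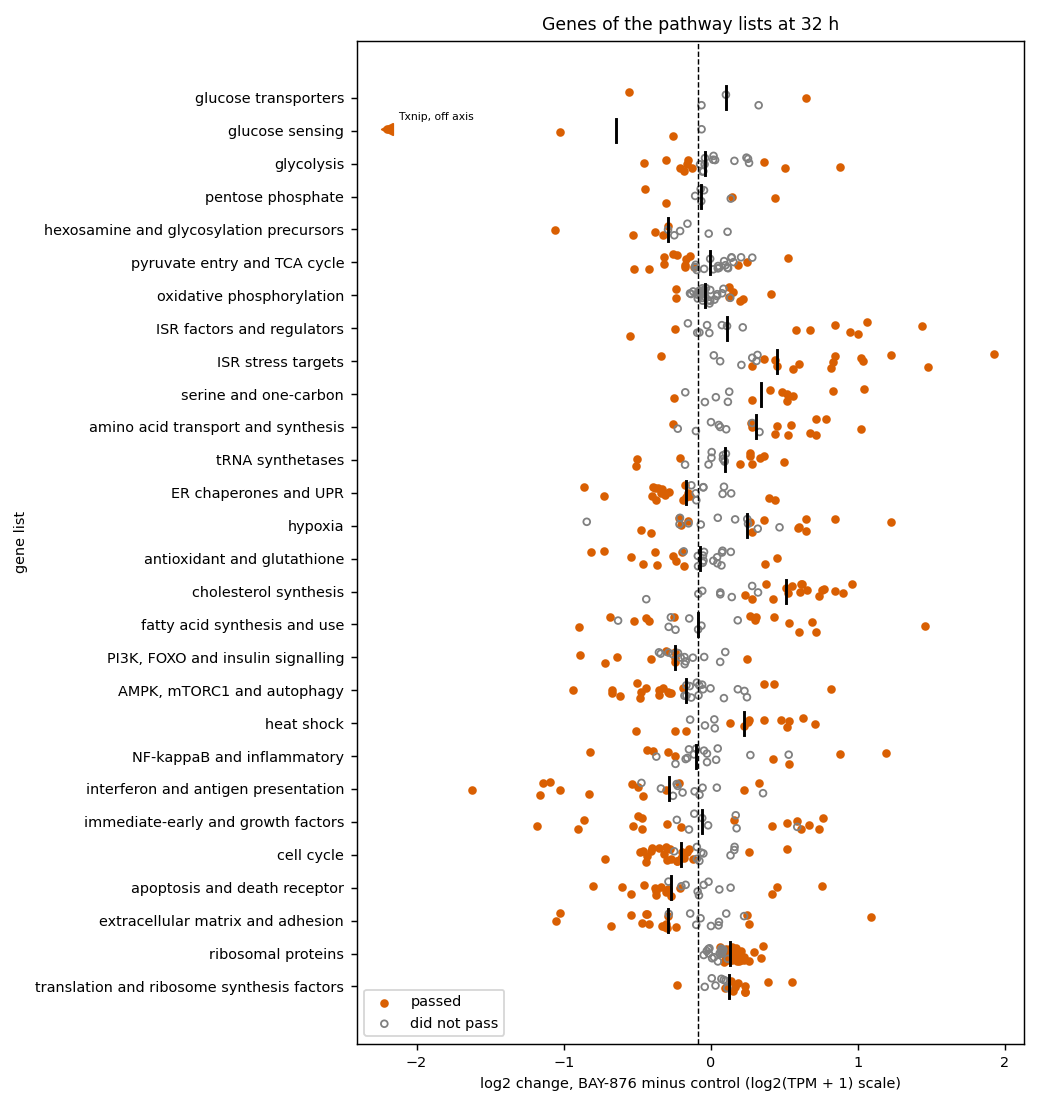
Log2 change, BAY-876 minus control, of every tested gene of 28 pathway lists, filled where it passed (limma adjusted p under 0.05) and open where it did not, with a black bar at the list median and a dashed line at the median of all genes, −0.09. ISR stress targets and cholesterol synthesis lie mostly to the right of the line, ER chaperones, cell cycle and interferon genes mostly to the left. Txnip, at −4.90, is drawn as a triangle at the left edge.

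Of 26 genes of the ER list 16 fell and 2 rose in TPM, with a median of −0.17, beside 26.8% and 12.1% of all genes. Under median ratio scaling 11 of the list fell and 4 rose. Sdf2l1, a partner of the chaperone BiP, was at 54.8, 65.1 and 57.3 TPM with BAY-876 and 105, 106 and 113 TPM in control (log2 −0.86, SE 0.09, limma adjusted p = 2.16e-05). Hsp90b1, the ER member of the HSP90 family with a pair of ER stress response elements in the promoter shown, was at 784, 811 and 794 TPM with BAY-876 and 999, 1006 and 1016 TPM in control (log2 −0.34, SE 0.03, limma adjusted p = 2.9e-06). No library overlapped in either gene. Creld2 and Manf, both secreted on ER stress, fell by 0.40 and 0.40, and the transcription factor Xbp1 by 0.34. Hspa5, which encodes BiP, averaged 1016 ± 25.0 TPM with BAY-876 and 1156 ± 13.1 TPM in control (log2 −0.19, limma adjusted p = 0.0005). The 2 members that rose were Herpud1, by 0.44, which also counts among the stress targets, and the oxidase Ero1l, by 0.40, whose call was lost without any one of the 6 libraries.

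Cholesterol genes had 17 of 25 members higher and 0 lower, with a median of 0.51, and 19 higher and 0 lower under median ratio scaling. Without control replicate 2 or BAY-876 replicate 2 there was 1 lower. Msmo1, a sterol oxidase, was at 47.5, 46.3 and 49.4 TPM with BAY-876 and 26.5, 26.7 and 25.1 TPM in control (log2 0.85, SE 0.06, limma adjusted p = 3.01e-06). Every BAY-876 library lay above every control library. Fdps, which makes farnesyl pyrophosphate, and Abcg1, a sterol exporter, rose by 0.73 and 0.90. Genes of the SREBP factors, Srebf1 and Srebf2, did not pass in TPM (limma adjusted p = 0.243 and 0.522). In the authors' deposited table for the same comparison both passed as higher, at log2 0.29 and 0.17. Whether these genes count as unchanged therefore depends on the processing. Fasn, fatty acid synthase, was among the 12 largest rises at 258, 235 and 233 TPM with BAY-876 and 88.2, 87.9 and 86.1 TPM in control (log2 1.46, SE 0.06, limma adjusted p = 4.26e-08). Acaca, which makes its substrate, rose by 0.72, and the elongase Elovl6 and desaturase Fads2 by 0.60 and 0.69. Cpt1a, the gate of mitochondrial fatty acid oxidation, fell to 12.1 ± 0.530 TPM with BAY-876, against 23.3 ± 0.744 TPM in control (log2 −0.90, SE 0.10, limma adjusted p = 3.86e-05), and Acss2, which activates acetate, by 0.68. Over the fatty acid list 9 of 23 rose and 6 fell, beside 12.1% higher and 26.8% lower over all genes.

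Of 24 tested interferon and antigen presentation genes 11 fell and 2 rose, with a median of −0.28, beside 26.8% lower over all genes. Under median ratio scaling 9 fell and 2 rose. Without any one control replicate only 22 were tested, since some members, Ifit1 among them, passed the filter through control libraries alone. Then 9, 8 and 8 fell and 2, 2 and 1 rose, without control replicates 1, 2 and 3. The count of falls thus rests in part on the filter. Isg15, a ubiquitin-like modifier with 3 overlapping response elements in the promoter shown, was at 2.36, 3.66 and 5.57 TPM with BAY-876 and 13.2, 14.9 and 12.3 TPM in control (log2 −1.62, SE 0.23, limma adjusted p = 0.000219). Ifit1, which binds foreign RNA, lay just inside the filter at 0.239, 0.294 and 0.0921 TPM with BAY-876 and 1.64, 1.54 and 1.94 TPM in control (log2 −1.16, limma adjusted p = 7.74e-05). It passed the filter through the control libraries alone. Ddx58, which encodes the RNA sensor RIG-I, was at 5.04, 5.16 and 4.36 TPM with BAY-876 and 11.7, 10.4 and 12.5 TPM in control (log2 −1.09, SE 0.09, limma adjusted p = 5.98e-06), and the factor Irf1 fell by 0.83. Of the antigen presentation members Tap1 fell by 0.46 and H2-D1 by 0.31. The class I genes are close paralogs, so the split of reads between them is uncertain. The 2 that rose were Bst2, which tethers virions, by 0.23 and the immunoproteasome subunit Psmb10 by 0.33, which did not pass without control replicate 3, BAY-876 replicate 1 or BAY-876 replicate 2. Inflammatory NF-kappaB genes had no common direction, with 4 of 23 higher and 5 lower in TPM, beside 12.1% and 26.8% of all genes. Under median ratio scaling 5 were higher and 5 lower. Ccl7, a monocyte chemokine, was at 64.0, 73.6 and 68.0 TPM with BAY-876 and 33.9, 28.6 and 26.0 TPM in control (log2 1.19, SE 0.09, limma adjusted p = 3.01e-06), and Ptgs2, which encodes cyclooxygenase 2, rose by 0.88. Vcam1, an adhesion molecule, fell by 0.82.

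Of 33 cell cycle genes 22 fell and 2 rose, with a median of −0.20, and 14 fell and 4 rose under median ratio scaling. Over all genes 26.8% fell and 12.1% rose in TPM. Mki67, the proliferation antigen, was at 59.2, 60.2 and 58.6 TPM with BAY-876 and 98.4, 98.1 and 98.0 TPM in control (log2 −0.72, SE 0.05, limma adjusted p = 1.29e-06). Libraries of the same group lay close together and the groups far apart. Aurkb, a mitotic kinase, and Top2a, the replication topoisomerase, fell by 0.48 and 0.44. Cdk4 and Cdk6, the kinases that act with cyclin D, rose by 0.52 and 0.26, and cyclin D1, from Ccnd1, fell to 147 ± 9.36 TPM with BAY-876, against 204 ± 10.8 TPM in control (log2 −0.47). The inhibitor Cdkn1a, which encodes p21, did not pass (limma adjusted p = 0.507). Ribosomal proteins had 35 of 52 members higher and 0 lower in TPM, by small steps with a median of 0.13. The count was 46 higher and 0 lower under median ratio scaling and 24 higher and 2 lower under quantile normalization. Ribosomal proteins made up 12.8 to 13.1% of TPM with BAY-876 and 11.8 to 12% in control. These genes have many processed copies, among which reads can be split. Among translation and ribosome synthesis factors 10 of 18 rose and 1 fell, with Eif5, which triggers GTP hydrolysis on eIF2, up by 0.55 and Polr1a, the large subunit of RNA polymerase I, up by 0.39.

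Growth factor feedback and immediate-early genes went both ways, with 8 of 25 higher and 9 lower in TPM and 9 higher and 8 lower under median ratio scaling. Dusp6, the phosphatase that ERK signalling induces, was at 109, 101 and 102 TPM with BAY-876 and 238, 241 and 233 TPM in control (log2 −1.18, SE 0.07, limma adjusted p = 9.34e-07). Spry4, another feedback inhibitor of receptor kinases, fell by 0.53 and the factor Egr3 by 0.86. Dusp4 and Dusp1, phosphatases of the same family as Dusp6, rose by 0.66 and 0.76, and the AP-1 subunit Fosl2 by 0.73. PI3 kinase and insulin signalling genes had 8 of 22 lower and 1 higher, beside 26.8% and 12.1% of all genes. Irs2, the insulin receptor substrate, fell by 0.72 and Ccng2, a FOXO target, by 0.89. That list had 5 lower and 1 higher under median ratio scaling, and 5 lower without control replicate 1, BAY-876 replicate 1 or BAY-876 replicate 3. AMPK, mTORC1 and autophagy genes had 15 of 33 lower and 3 higher, and 13 lower and 6 higher under median ratio scaling. Wipi1, which acts in autophagosome formation, was at 17.7, 17.4 and 16.5 TPM with BAY-876 and 33.5, 35.1 and 33.0 TPM in control (log2 −0.94, SE 0.08, limma adjusted p = 7.71e-06), and Ulk1, the kinase that starts autophagy, fell by 0.62. The 3 that rose were Flcn and its partner Fnip1, which act on mTORC1 at lysosomes, by 0.82 and 0.43, and the autophagy receptor Sqstm1 by 0.36.

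Hypoxia genes, which share members with the glucose and stress lists, had 9 of 25 higher and 5 lower, and 12 higher and 2 lower under median ratio scaling. Hif1a, the oxygen-regulated subunit, was at 264, 249 and 272 TPM with BAY-876 and 172, 162 and 166 TPM in control (log2 0.65, SE 0.06, limma adjusted p = 1.01e-05), and its partner Arnt fell by 0.41. Ndrg1, a stress-responsive gene, and Vegfa, an angiogenic factor, rose by 1.23 and 0.84. Bnip3l, a mitophagy receptor, fell by 0.47. Antioxidant genes had 2 of 26 higher and 10 lower in TPM but 7 higher and 6 lower under median ratio scaling. The shares over all genes were 12.1% higher and 26.8% lower in TPM. Catalase Cat was at 16.9, 14.3 and 13.8 TPM with BAY-876 and 27.2, 28.0 and 26.1 TPM in control (log2 −0.82, SE 0.10, limma adjusted p = 6.9e-05), thioredoxin reductase Txnrd1 fell by 0.54 and Gstm1, a glutathione transferase with close paralogs, by 0.72. The pair that rose were Hmox1, haem oxygenase, by 0.37 and Slc7a11, the cystine transporter, by 0.45. Heat shock and mitochondrial chaperone genes had 10 of 17 higher and 3 lower, and 12 higher and 1 lower under median ratio scaling, among them the mitochondrial protease Lonp1 and the mitochondrial chaperone Hspa9, which rose by 0.63 and 0.52.

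Death receptor and apoptosis genes had 13 of 25 lower and 3 higher, and 11 lower and 4 higher under median ratio scaling. Among all genes tested 26.8% were lower and 12.1% higher in TPM. Casp8, the initiator caspase of death receptors, was at 25.6, 27.0 and 27.7 TPM with BAY-876 and 50.9, 44.6 and 46.8 TPM in control (log2 −0.80, SE 0.06, limma adjusted p = 2.71e-06). Tnfrsf1a, the main TNF receptor, and Cflar, the inhibitor of caspase 8, fell by 0.29 and 0.29. The 3 that rose were Bid, Bbc3 and Bax, which promote the mitochondrial route, by 0.75, 0.45 and 0.42. Matrix and adhesion genes had 14 of 26 lower and 3 higher, and 11 lower and 5 higher under median ratio scaling. Col18a1, a basement membrane collagen, was at 33.9, 29.6 and 31.1 TPM with BAY-876 and 70.6, 63.0 and 65.6 TPM in control (log2 −1.05, SE 0.08, limma adjusted p = 4.47e-06). Sparc, which binds collagen, fell to 279 ± 1.74 TPM with BAY-876, against 407 ± 14.8 TPM in control, and Thbs2, a thrombospondin, went up to 187 ± 4.45 TPM with BAY-876, against 87.7 ± 1.71 TPM in control (limma adjusted p = 5.58e-06 and 1.36e-07). Among LLC markers Krt8 and Krt18, paired keratins of simple epithelium, fell by 0.54 and 0.96, and 5 of 11 markers were lower and 1 higher, with 3 lower without control replicate 1 or under median ratio scaling.

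Most of the 12 largest rises and 12 largest falls, taken among genes with a mean of 5 TPM or more in the higher group and without predicted genes, belonged to no list. Nadk2 was at 176, 161 and 186 TPM with BAY-876 and 41.9, 43.2 and 41.0 TPM in control (log2 2.03, SE 0.09, limma adjusted p = 9.44e-08), a 4.07-fold rise on the log2(TPM + 1) scale. The cytosolic NAD kinase Nadk rose by 0.27. Slco4a1, an organic anion transporter, was at 49.7, 44.0 and 52.1 TPM with BAY-876 and 18.03, 16.3 and 16.8 TPM in control (log2 1.46), and Nptx1, a neuronal pentraxin, at 61.5, 64.8 and 60.7 TPM with BAY-876 and 21.9, 21.9 and 21.8 TPM in control (log2 1.47). In all of them the groups were well apart. Grem1, a secreted antagonist of bone morphogenetic proteins, Bhlhe40, a clock-related repressor, Atp1b1, a sodium pump subunit and Angptl6 rose by log2 1.42, 1.32, 1.38 and 1.29. Below Txnip stood Prtn3, the neutrophil proteinase 3, at 0.141, 0.416 and 0.291 TPM with BAY-876 and 8.16, 5.64 and 6.88 TPM in control (log2 −2.62, SE 0.23, limma adjusted p = 9.91e-06), which passed the filter through control libraries alone. Rras, a RAS-related GTPase, was at 6.58, 8.23 and 8.71 TPM with BAY-876 and 30.0, 34.3 and 35.3 TPM in control (log2 −1.96, SE 0.12, limma adjusted p = 1.12e-06). Arap3 and Rundc3a, which act with small GTPases, fell by 1.81 and 1.79, C1qtnf1 by 1.69, Pla2g7, a lipoprotein-associated phospholipase, by 1.66 and the scaffold Slc9a3r1 by 1.65. The last 3 of the 12 largest falls were BC028528, Galnt15, a glycosyltransferase, and Raet1e, a ligand of the NK receptor NKG2D with close paralogs, at log2 −1.57, −1.48 and −1.47. Exons of Atp1b1, Angptl6, C1qtnf1 and BC028528 share 18.7%, 16.8%, 20.5% and 49.8% of their bases with another annotated gene, whose reads cannot be told apart without strand. In none of the genes of this paragraph taken by that rule did a BAY-876 library overlap a control library, which the choice of these genes required.

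**Figure D3:**
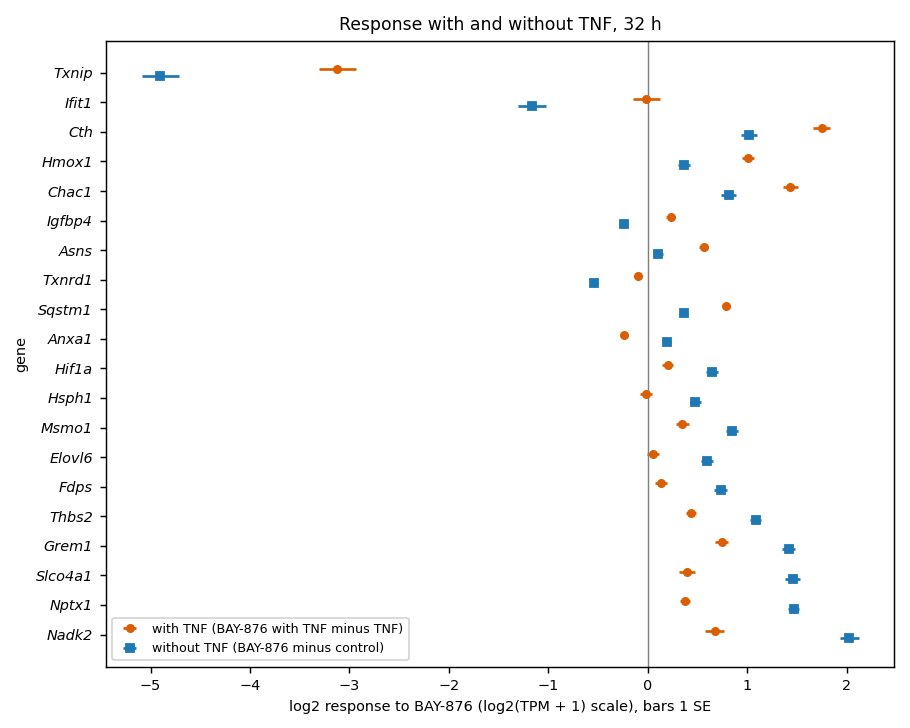
Log2 response to BAY-876 of the 20 named genes with the smallest p for a difference between the responses, with TNF (circles, BAY-876 with TNF minus TNF) and without (squares, BAY-876 minus control), n = 3 libraries per group and bars of 1 SE. Cth, Hmox1 and Asns lie further right with TNF, and Nadk2, Nptx1 and Slco4a1 lie further right without it. Txnip and Ifit1 lay under 1 TPM in both groups with BAY-876, so their gaps say nothing of the response.

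The same inhibitor was tested beside TNF, with libraries of its own on both sides. BAY-876 with TNF against TNF gave 1318 higher and 3013 lower genes, 10.7% and 24.4% of those tested. The response differed between the presence and absence of TNF, by the interaction term of the limma fit, in 196 genes, or 1.59%, with 93 more positive with TNF (0.752%) and 103 less (0.833%). That number rests on single libraries, since it ranged from 114 to 255 when 1 library was left out. It fell to 125, 114, 119 and 122 without control replicate 1, control replicate 2, BAY-876 replicate 2 and BAY-876 replicate 3, and to 114 and 129 without TNF replicates 2 and 3. Nadk2 rose by a log2 of 0.68 with TNF, at 48.3 ± 3.37 TPM in cells with both agents and 30.0 ± 4.67 TPM in cells with TNF, against 2.03 without TNF (difference −1.35, SE 0.13, limma adjusted p = 0.0019). Txnip stood at 0.431 ± 0.181 TPM with both agents and 11.8 ± 3.95 TPM with TNF, beside 0.491 ± 0.177 TPM with BAY-876 and 43.5 ± 0.684 TPM in control. Both groups with BAY-876 lay under 1 TPM, so a difference between its responses follows its level without the inhibitor and says nothing of the response. Among ISR targets 4 of 21 had a more positive response with TNF and 0 a less positive one. Cth changed by 1.75 with TNF and 1.02 without (limma adjusted p = 0.0109), and Asns by 0.56 with TNF and 0.10 without (limma adjusted p = 0.00586). Among antioxidant genes Txnrd1 changed by −0.10 with TNF and −0.54 without (limma adjusted p = 0.00309), and 8 of 26 of that list had a more positive response with TNF. Of 25 cholesterol genes 4 had a less positive response with TNF and 0 a more positive one, such as Msmo1 at 0.35 with TNF and 0.85 without (limma adjusted p = 0.0175). The transferrin receptor Tfrc, named after its values were seen, changed by −0.04 with TNF and by −0.89 without (limma adjusted p = 0.00363). In the labels of 2 libraries with both agents the treatment tag gives another compound number than the title, and the titles were followed.

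**Figure D4:**
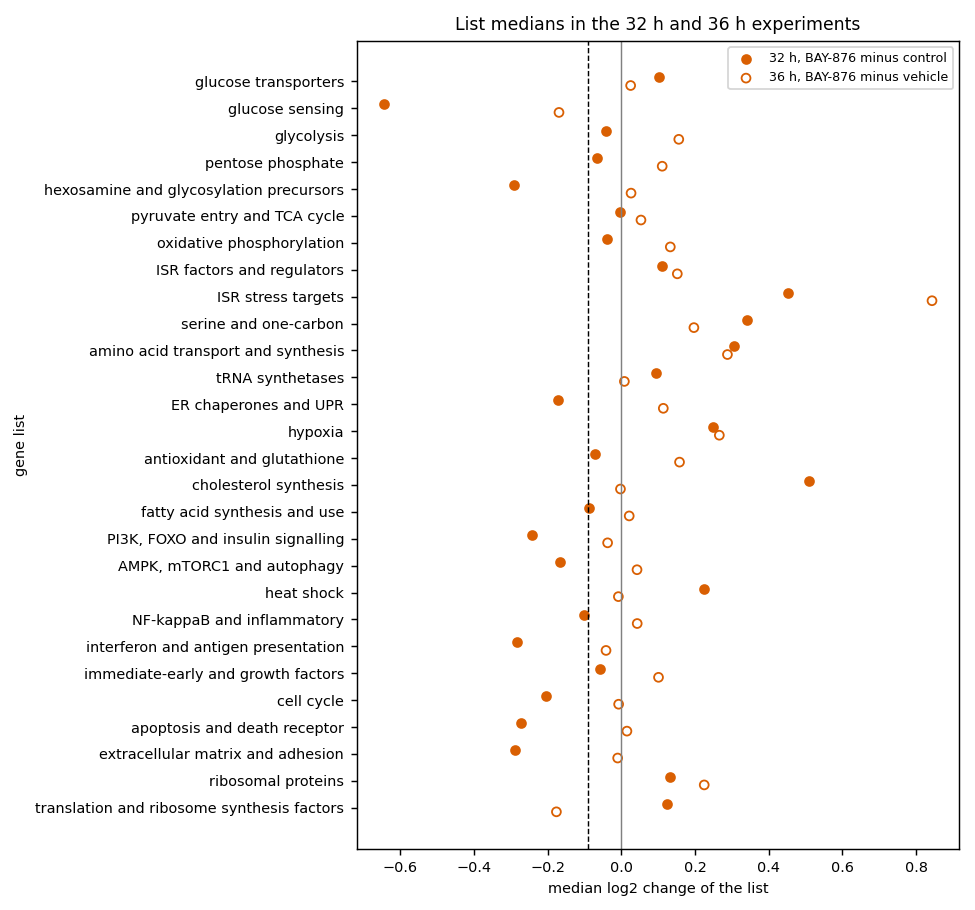
Median log2 change of 28 pathway lists for BAY-876 against control at 32 h (filled, above) and BAY-876 against vehicle in the 36 h experiment (open, below), each from its own table, with the median of all genes as a dashed line for 32 h. ISR stress targets are at 0.45 and 0.84, ER chaperones at −0.17 and 0.11, and cholesterol synthesis at 0.51 and −0.0022. The 32 h values are from TPM. Under median ratio scaling the 32 h medians of these lists, not drawn, were 0.535, −0.0709 and 0.605.

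A second experiment gave cells 200 nM BAY-876 or vehicle for 36 h, in a table of normalized counts that was scaled apart from the TPM. Values of the tables are set side by side, and no test between them was made. At 36 h 949 genes passed as higher and 919 as lower, 7.34% and 7.10% of 12937 tested. The total of 1868 ranged from 648 to 2394 when 1 library was left out, with 1072 without BAY-876 replicate 3 and 765, 714 and 648 without vehicle replicates 1, 2 and 3. Of 11906 genes tested in both experiments 937 were called in both, which is 19.7% of the calls at 32 h and 51.3% of those at 36 h. Among them 670 had the same sign and 267 opposite signs. Across genes the log2 changes correlated at 0.279 (Pearson) and 0.201 (Spearman), over genes that are not independent. Txnip changed by −4.90 at 32 h and −5.96 at 36 h, Slc2a1 by 0.64 and 0.94, Gdf15 by 1.93 and 2.03, and Ndrg1 by 1.23 and 1.64, all past the threshold in both. Chac1 changed by 0.82 at 32 h and 3.36 at 36 h, where it was at 169.7 ± 10.8 normalized counts with BAY-876 and 15.7 ± 2.95 in vehicle. Nadk2 was at 2.03 and 0.47, and Fasn at 1.46 and 0.26.

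Gene groups can be set side by side in the same way. ISR targets had 14 of 21 higher and 1 lower at 32 h and 17 of 20 higher and 1 lower at 36 h. ER genes had 2 of 26 higher and 16 lower at 32 h and 12 of 26 higher and 0 lower at 36 h, with Xbp1 at −0.34 and 0.54, Hspa5 at −0.19 and 0.22 and Manf at −0.40 and 0.32. Cholesterol genes had 17 of 25 higher and 0 lower at 32 h and 1 of 26 higher and 2 lower at 36 h. Interferon genes had 2 of 24 higher and 11 lower at 32 h and 2 of 25 higher and 1 lower at 36 h. For cell cycle genes it was 2 of 33 higher and 22 lower, then 5 higher and 4 lower. Death receptor and apoptosis genes had 3 of 25 higher and 13 lower, then 2 higher and 1 lower. Hexosamine and nucleotide-sugar genes had 0 of 11 higher and 5 lower, then 0 of 12 higher and 0 lower. Ribosomal proteins had 35 of 52 higher at 32 h and 18 at 36 h, with 0 lower in both, but at 36 h the count was 38 without BAY-876 replicate 1 and 1, 0 and 0 without vehicle replicates 1, 2 and 3. Translation and ribosome synthesis factors had 10 of 18 higher and 1 lower at 32 h and 2 higher and 11 lower at 36 h, where 6, 7, 6, 6 and 6 were lower without BAY-876 replicates 2 and 3 and vehicle replicates 1, 2 and 3. ER genes at 36 h had 6, 7 and 6 higher without vehicle replicates 1, 2 and 3. Counts at 32 h here are from TPM. Under median ratio scaling the 32 h counts were 4 higher and 11 lower for ER genes and 2 and 9 for interferon genes. They were 4 and 14 for cell cycle genes, 4 and 11 for apoptosis genes and 19 and 0 for cholesterol genes. For ISR targets they were 16 and 1, for hexosamine genes 0 and 5, for ribosomal proteins 46 and 0 and for translation factors 15 and 0. The experiments differ in the control, in the schedule of the inhibitor and in the table's scaling, and these cannot be told apart.

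The authors' deposited table for the same comparison lists 14148 genes, of which 2303 passed an adjusted p of 0.05 as higher and 2161 as lower. In the authors' deposited table Txnip has a log2 fold change of −6.38, Gdf15 of 2.28, Nadk2 of 2.15 and Slc2a1 of 0.75, on a scale with no pseudocount stated in the sources used here. Of the 12221 genes of the authors' deposited table that also had a limma test, 3482 were called both there and by limma, and all 3482 had the same sign. The median log2 fold change of the authors' deposited table over these genes is 0.00292, against −0.09 in TPM.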

How the data were processed

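Per the labels' protocols, Trizol was used to extract RNA from LLC cells and a SMARTER mRNA kit to make libraries. DESeq2 1.34.0, Salmon 0.13.1, STAR 2.6.1d and build mm10 are named in the submitters' processing notes, without the step each served. The 32 h table holds TPM values that the authors deposited, scaled to 1000000 per library, and 24 of its columns, which match no sample, were not used. The 36 h table holds normalized count signal deposited by the authors, and tests were kept within a table. The authors' deposited table gives log2 fold changes, a signal mean, p-values and a score per gene, and was used for description.

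Genes at 1 TPM or more in at least 3 of the 6 libraries were tested with limma 3.58.1 in R 4.3.3 on log2(TPM + 1), over 12 libraries with 8 residual degrees of freedom. The 36 h table was tested on log2(normalized count + 1) for genes at 10 or more in at least 3 libraries. Fold changes on these scales understate low genes. The script was tested on simulated data. Named genes were the 12 largest rises and 12 largest falls past an adjusted p of 0.05, with separate groups and a higher group averaging 5 TPM or more, leaving out predicted, mitochondrial and ribosomal genes. To these came the 4 smallest p of each list, every Slc2a gene and glucose sensing gene, and list members beside their counts, and a few genes are not reported here. Members and lists were chosen with earlier results of these data known. Replicates were not paired in the main tests. Alternatives were other pseudocounts, filters and scalings, a replicate block, the 6 libraries alone, and leaving out each library. Coordinates of genes are those of GENCODE M21 on GRCm38.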

Additional observations from a re-analysis of the deposited data

Results flagged for a closer look

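Of 185 named genes, 34 were singled out because their response to BAY-876 differed between the presence and absence of TNF by the interaction term, 19 more positive with TNF and 15 less. In log2 units, response with TNF minus response without, the more positive were Slc7a3 0.85, C1qtnf1 0.84, Aldh1l2 0.84, Cth 0.73, Atf5 0.68, Hmox1 0.64, Chac1 0.62, Trib3 0.53, Igfbp4 0.48, Asns 0.46, Txnrd1 0.44, Sqstm1 0.43, Gstm1 0.38, Slc1a4 0.37, Prdx6 0.28, Slc16a1 0.26 and Hspa5 0.22. Txnip and Ifit1 also passed, at 1.78 and 1.15, but say nothing of a difference in response. Txnip averaged under 1 TPM in both groups with BAY-876, and Ifit1 0.0317 ± 0.0321 TPM with both agents and 0.0415 ± 0.0463 TPM with TNF, so both values follow the levels of the groups without the inhibitor. C1qtnf1 was low as well, at 0.795 ± 0.114 TPM with both agents. The less positive were Nadk2 −1.35, Nptx1 −1.09, Slco4a1 −1.06, Abcg1 −0.76, Grem1 −0.68, Thbs2 −0.65, Fdps −0.60, Elovl6 −0.55, Msmo1 −0.50, Hsph1 −0.50, Fosl2 −0.49, Hif1a −0.45, Anxa1 −0.44, Fasn −0.43 and Ccl2 −0.39. Leaving out 1 library lowered the number of such genes over the whole table to as few as 114. For the 34 named genes, each checked under the alternative settings, the call held in 454 checks and was lost in 151. No sign turned.

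A further rule singled out 11 named genes that passed at 32 h and at 36 h with opposite signs. Their groups did not overlap in either experiment, and Hspa5 and Ccl2 are also among the genes above. The tables were scaled separately, so the difference was not tested. The log2 changes at 32 h and then at 36 h were Ccng2 −0.89 and 1.11, Hspa5 −0.19 and 0.22, Manf −0.40 and 0.32, Mdh1 −0.23 and 0.28, and Xbp1 −0.34 and 0.54 where 36 h was higher than vehicle, and Ccl2 0.42 and −0.30, Cdk6 0.26 and −0.40, Eif4a1 0.23 and −0.16, Eif5 0.55 and −0.16, Nop56 0.23 and −0.40, and Polr1a 0.39 and −0.24 where it was lower.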

How the results depend on the processing

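Of 171 named genes that passed at 32 h, 168 kept their call under median ratio scaling, 170 under quantile normalization, 171 with a pseudocount of 0.1 TPM and 170 without a filter, and none changed sign under these settings. The total of 4806 called genes was 4679 with a pseudocount of 0.1, 4501 without a filter, 4295 at a mean of 5 TPM or more and 4764 from the 6 libraries alone, and 3885 to 4080 when 1 library was left out. Genes passing as higher numbered 2294 under quantile normalization and 2368 under median ratio scaling, against 1492 in TPM, and those passing as lower 2128 under median ratio scaling, against 3314. The cause was not tested. Leaving out 1 library gave 114 to 255 genes differing by TNF, of which 45 to 137 were higher and 64 to 118 lower, and gave 648 to 2394 genes at 36 h, of which 355 to 1224 were higher and 293 to 1170 lower. Among named genes that did not pass, signs turned under quantile normalization in Col3a1 (log2 −0.0478), Eif2ak4 (0.0112), Gapdh (−0.0151), Mlx (0.0085) and Slc2a9 (0.0296), and under median ratio scaling in Eif2ak4 (0.0014) and Mlx (0.0352). With 1 library left out the lowest and highest values were −0.0128 and 0.01003 for Col3a1, −0.14 and 0.0209 for Mlx, −0.24 and 0.0805 for Slc2a9 and −0.0827 and 0.223 for Slc2a10. Same-numbered BAY-876 and control libraries did not deviate together, with correlations of −0.159, −0.053 and −0.00803. These values cannot show whether equal numbers share a culture, and the labels do not say. A replicate block gave 4749 called genes at 32 h, 179 differing by TNF and 1563 at 36 h. Depth is unknown in TPM, so counting error cannot be given, and genes near 1 TPM are the least certain.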

Other observations

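Gene families grouped by the start of their symbols, chosen after their values were seen, gave further values at 32 h. Their counts at 32 h were made in TPM only and not repeated under the other scalings. Genes with symbols starting in Atp6v had 10 of 17 higher and 0 lower with BAY-876, with a median log2 of 0.29. At 36 h 6 of 17 were higher and 0 lower, beside 7.34% of all genes higher there. They are subunits of the V-ATPase, the proton pump that acidifies lysosomes, and the pseudogene Atp6v0c-ps2, which passed in neither experiment. The metallothioneins, small zinc-binding proteins, both rose, Mt1 to 698, 667 and 684 TPM with BAY-876, against 347, 330.4 and 336 TPM in control, and Mt2 to 606, 616 and 639.9 TPM with BAY-876, against 302, 313 and 299.6 TPM in control. The groups lay apart in both, and 73.5% of the exon bases of Mt2 lie in an annotated gene that overlaps it. Their changes were 1.01 and 1.02 at 32 h and did not pass at 36 h.

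Oas and Oasl genes, which are interferon targets, had 4 of 4 lower, with a median of −0.68. Oas1b and Oasl2 reached 1 TPM in control libraries alone, so they entered the test only through the group in which they were high. In Oas1a the groups overlapped. Ly6 surface protein genes had 3 of 3 lower, with a median of −1.31. At 36 h 0 of 3 Oas genes and 1 of 3 Ly6 genes were lower and 0 higher. Both families hold close paralogs, among which reads can be split. Alpha and beta tubulins had 7 of 11 lower and 1 higher, and Rab GTPases, which direct vesicle traffic, 20 of 53 lower and 0 higher, with medians of −0.30 and −0.19. At 36 h the tubulins had 3 higher and 3 lower, with a median of 0.0892, and the Rab genes 7 higher and 1 lower, with a median of 0.0567. Sox9, a transcription factor, was at 15.0, 15.5 and 15.5 TPM with BAY-876 and 5.72, 5.79 and 5.89 TPM in control (log2 1.26, limma adjusted p = 1.89e-06). Mitochondrial ribosomal proteins had 18 of 82 higher and 12 lower, and 1 of 79 higher and 3 lower at 36 h. These shares can be read beside the 12.1% higher and 26.8% lower over all genes at 32 h, and 7.34% and 7.10% at 36 h. Whether the family counts at 32 h hold under median ratio scaling was not tested.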
